A study of Homo sapiens with 4 samples.

Results

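Natural antisense transcripts run from the strand opposite to a named gene, and 306 genes with antisense names had 100 or more counts here. They are the genes of the deposited count table whose symbol ends in -AS and 1 digit, with 100 or more counts summed over 4 libraries. The choice left out EPB41L4A-AS1. The table lists 56303 genes, of which 1162 carry such a name and 787 of those had at least 1 count. The members were thus selected on their summed counts, so their abundance is a description. RNA came from EJ and T24T, established human bladder cancer cell lines, each transfected with the circular RNA hsa_circ_0008399 (circ) or with the vector alone. Each of the 4 groups, EJ vector, EJ circ, T24T vector and T24T circ, was 1 library of TRIzol-extracted total RNA. EJ is registered as a derivative of T24, and T24T is a variant line raised from T24, so the lines share a lineage. No label says that libraries came from separate cultures, so p-values measure only the spread between these samples, taken mostly from other genes.

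An antisense transcript can start at a promoter shared with its sense gene and run away from it, or it can start inside or beyond the sense gene and run back across its exons. Such RNAs are often nuclear, spliced and less abundant than the mRNA, and many are removed by the nuclear exosome soon after they are made. Some are known to act on the neighbouring gene in cis, through transcription, chromatin or RNA pairing, while others act at a distance.

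Most of the members belong to the overlapping class. By the exon coordinates of the count table, 250 members share exon sequence with the sense gene in their name. Another 29 are divergent, with starts within 5000 bases and transcription running apart, and 20 overlap the span of the sense gene but none of its exons. No sense gene was matched for 7 members, HOXA-AS2, HOXA-AS3, HOXB-AS1, HOXB-AS3, HOXC-AS2, MLK7-AS1 and RPARP-AS1. The other 299 members point to 293 distinct sense genes. GENCODE release 29 types 228 of the members as antisense, 36 as processed transcripts and 13 as lincRNAs. Of 296 members found in RefSeq, 288 are typed there as long noncoding RNAs and 4 as protein-coding, namely MMP24-AS1, NCBP2-AS2, SPTY2D1-AS1 and TOPORS-AS1. For 22 members, the current RefSeq symbol ends in -DT, for divergent transcript, in place of the antisense name.

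Members with a promoter entry in RefSeq (GRCh38.p14) numbered 229. Over windows of 300 bases, from 250 bases before the start to 50 after it, their median GC content was 62% with 21 CpG dinucleotides. The 35116 promoters of the whole RefSeq table had medians of 58.7% and 14. Promoters of 4 members are printed because these transcripts differed between circ and vector and share no exon with another gene, or, for OIP5-AS1, only a small part. Each runs 5′ to 3′ on the transcribed strand, with CpG dinucleotides in capitals. SIRPG-AS1 (chr20:1633258-1633557, plus strand) and JHDM1D-AS1 (chr7:140177011-140177310, plus strand) were the called members with the highest log2 ratios, both with few counts in vector and members through their circ libraries. BAIAP2-AS1 (chr17:81034670-81034969, minus strand) and OIP5-AS1 (chr15:41283740-41284039, plus strand) fell.
SIRPG-AS1: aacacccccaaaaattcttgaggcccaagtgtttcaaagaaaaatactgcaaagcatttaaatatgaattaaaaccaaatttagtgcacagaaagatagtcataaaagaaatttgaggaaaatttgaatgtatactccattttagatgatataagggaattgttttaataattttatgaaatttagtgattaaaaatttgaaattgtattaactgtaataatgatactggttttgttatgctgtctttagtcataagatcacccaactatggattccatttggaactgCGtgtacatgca
JHDM1D-AS1: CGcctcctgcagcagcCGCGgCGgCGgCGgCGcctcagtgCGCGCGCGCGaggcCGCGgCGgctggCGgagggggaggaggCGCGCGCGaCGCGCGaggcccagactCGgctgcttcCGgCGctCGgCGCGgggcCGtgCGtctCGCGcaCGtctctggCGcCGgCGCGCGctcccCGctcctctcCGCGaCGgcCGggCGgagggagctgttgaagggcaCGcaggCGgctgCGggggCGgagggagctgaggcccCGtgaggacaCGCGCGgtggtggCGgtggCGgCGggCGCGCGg
BAIAP2-AS1: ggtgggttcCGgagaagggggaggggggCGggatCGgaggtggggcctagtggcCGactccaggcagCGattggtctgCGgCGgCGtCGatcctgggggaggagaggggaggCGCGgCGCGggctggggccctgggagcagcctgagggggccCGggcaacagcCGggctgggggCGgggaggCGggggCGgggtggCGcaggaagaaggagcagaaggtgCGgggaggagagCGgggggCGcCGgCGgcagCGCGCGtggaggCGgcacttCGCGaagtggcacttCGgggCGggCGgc
OIP5-AS1: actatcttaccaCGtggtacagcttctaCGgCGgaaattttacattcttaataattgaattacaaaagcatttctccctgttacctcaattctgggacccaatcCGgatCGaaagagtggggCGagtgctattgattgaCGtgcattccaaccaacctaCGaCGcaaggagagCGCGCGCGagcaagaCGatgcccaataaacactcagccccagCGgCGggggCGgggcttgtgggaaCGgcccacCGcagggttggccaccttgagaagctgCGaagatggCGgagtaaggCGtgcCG
The window of SIRPG-AS1 holds 28.7% GC and 1 CpG, whereas that of JHDM1D-AS1 holds 82% GC and 59 CpGs. The windows of BAIAP2-AS1 (77.3% GC, 33 CpGs) and OIP5-AS1 (54.3% GC, 23 CpGs) lie between them. For BAIAP2-AS1 the RefSeq start lies 162 bases from the start in the count table, and for the other printed members they coincide. Short motifs of stress, growth and sterol factors were searched on both strands. An E-box, CACGTG, was found in the OIP5-AS1 window, in 9.17% of the member windows and in 7.26% of all windows. A CRE, TGACGTCA, was found in 2.18% and 1.85%, an AP-1 motif, TGANTCA, in 5.68% and 7.71%, and an ATF4 composite motif, TGATGNAA, in 2.18% and 3.62%. A sterol regulatory element motif was in 0 of the 229 member windows and in 0.0456% of all windows.

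Total counts ranged from 14703455 to 18057768 per library. Epithelial markers, led by the keratin genes KRT7, KRT8 and KRT18, summed to between 222.8 and 416.1 RPKM, with 2 of 6 under 10 counts throughout, and mesenchymal markers (VIM, CDH2, FN1) to between 153 and 220.9. Leukocyte, endothelial and fibroblast markers each summed to under 0.12 RPKM in every library, and 9 urothelial markers to between 3.34 and 4.501, with 5 of them under 10 counts throughout.

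Whether counting used the strand bears on every value below. MIF-AS1 and MIF, which encodes a cytokine, had almost the same count in each library. MIF-AS1 had 3946 (vector) and 3204 (circ) counts in EJ, with 4731 and 4852 in T24T, and MIF had 3942, 3201, 4722 and 4846. The largest difference was 0.191%, and MIF-AS1 was the only member within 5% of its sense gene in all 4 libraries. Over the whole table, 701 pairs were found in which all exon bases of 1 gene lie inside exons of a gene on the opposite strand. In 372 values of such inner genes at 100 or more counts, 2 exceeded the outer gene, both from 1 pair and by at most 3 counts. For 423 pairs on the same strand, 0 of 165 such values did. Reads from exon sequence that a member shares with another gene therefore cannot be told apart from reads of that gene. Of the 306 members, 36 have no exon base covered by an exon of the opposite strand, and the median member has 15.2% of its exon bases so covered. A floor on each member's unshared counts was set by subtracting the summed counts of all genes whose exons overlap it. For 47 members this floor was 50% or more of the member's counts in every library, and for 246 it was 0 in at least 1 library. The 47 are called members with mostly unshared counts here, and results are given for them separately. The floor subtracts only genes with overlapping exons. If strand was not used, reads from introns of a sense gene would still pass as unshared in members inside its span, such as SIRPG-AS1 and ARHGAP31-AS1.

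The most abundant antisense transcripts had levels far above the median member. The mean deposited RPKM, a read level scaled by exon length and library size, ranged from 0.152 to 416.5 over the members, with a median of 2.90. NUCB1-AS1, opposite the gene of a Golgi calcium-binding protein, led with 473.6 (vector) and 439.2 RPKM (circ) in EJ, and 367.4 and 385.7 in T24T. Its sense gene NUCB1 had between 94.0 and 114.1 RPKM. RRM1-AS1, opposite the large subunit gene of ribonucleotide reductase, had 214.7, 257.7, 223.1 and 260.7 RPKM in the same order. NUCB1-AS1 and RRM1-AS1 have short exon models of 433 and 346 bases, and their sense genes had enough counts to cover all of theirs. The next in order by mean were MIF-AS1, UBE2Q1-AS1, ODF2-AS1, VIM-AS1, EZR-AS1, MDC1-AS1 and RAB11B-AS1. For all 9 the floor on unshared counts was 0.

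**Figure D1:**
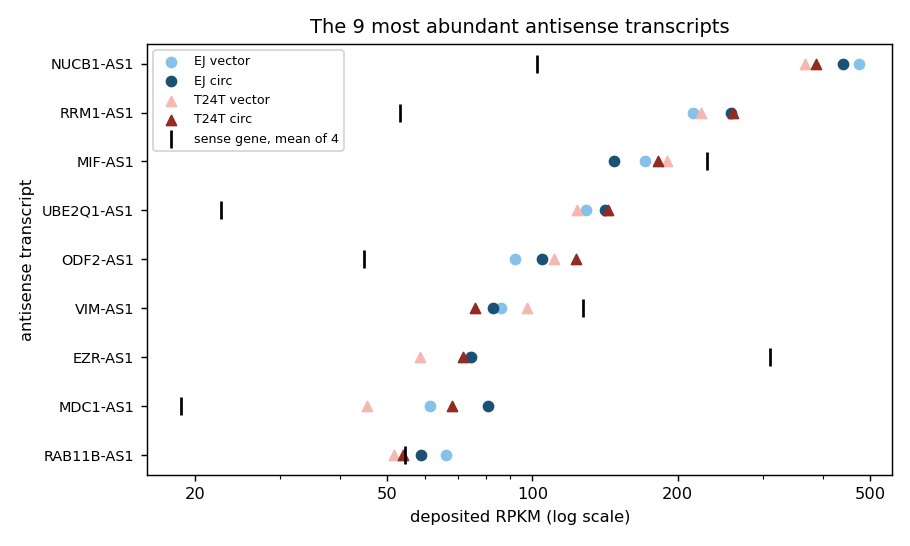
Deposited RPKM (log scale) of the 9 antisense transcripts with the highest mean level, with 1 point per library and a black tick for the 4-library mean of the sense gene. NUCB1-AS1 lies between 367.4 and 473.6 RPKM, above the mean of 102.4 for NUCB1, while MIF-AS1, VIM-AS1 and EZR-AS1 lie below the mean of their sense genes.

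The members' share of all counts was 0.490% for both EJ libraries, 0.491% for T24T vector and 0.4998% for T24T circ. The 10 members with the most counts held 29.2% of these. On the RPKM scale 185 members were below their sense gene in all 4 libraries, 89 were above it in all 4 and 25 changed order. The median ratio of member to sense gene was 0.617. FGD5-AS1 had the highest ratio, at 18.1, 15.0, 20.1 and 16.8 RPKM in EJ vector, EJ circ, T24T vector and T24T circ, with FGD5 at 0 or 1 count. FGD5 encodes an exchange factor typical of endothelial cells. FGD5-AS1 also overlaps exons of NR2C2, a nuclear receptor gene with 1343, 1296, 1312 and 1412 counts. At the count threshold, CCNT2-AS1, JAZF1-AS1 and TTC21B-AS1 were just inside with 100 counts each, and INTS6-AS1, IQCH-AS1 and RASAL2-AS1 just outside with 99 each.

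The study asked which genes lie downstream of the circular RNA. The effect of circ was estimated with both cell lines in 1 fit. All 306 members passed the filter on low counts. Antisense transcripts moved in both directions, with more rises than falls. By edgeR's quasi-likelihood test at an adjusted p under 0.05, 39 members differed between circ and vector (12.7%, against 12.7% of all genes tested), a share equal to the background. Of these, 29 were higher in circ (9.48%, against 7.13% of all genes tested) and 10 were lower (3.27%, against 5.56%). Rises ranged from 0.26 to 1.43 on the log2 scale with a median of 0.60, and falls from -0.25 to -1.32 with a median of -0.49. The median log2 ratio was 0.07 for the members and 0.00 for all 17689 genes tested. Within the lines the members' median was 0.06 in EJ and 0.11 in T24T. All 39 called members moved the same way in both lines. The fit over both lines calls mostly genes whose ratios agree between them, so this follows largely from the call. Both circ libraries lay above both vector libraries for 66 members (21.6%, against 15.2% of all genes) and below them for 30 (9.80%, against 13.5%). The ratio was above 0 in both lines for 127 members (41.5%, against 33.4%) and below 0 in both for 71 (23.2%, against 32.3%), which makes 198 of 1 sign (64.7%, against 65.7%). A change of 1.5-fold or more in both lines was seen upward in 9 members (2.94%, against 2.51%) and downward in 4 (1.31%, against 1.38%), shares near the background.

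These calls lean on the model. With 1 library per group, the fit leaves 1 residual degree of freedom and takes most of its spread from other genes. DESeq2 gave an adjusted p to 50 members and to 6372 genes in all, and the shares that follow are of these. It called 2 members higher, NOP14-AS1 and GABPB1-AS1 (4%, against 2.90% of genes), and 1 lower, RUSC1-AS1 (2%, against 2.45%). That made 3 in all (6%, against 5.35%), a share near the background. Without the cell line as a block, edgeR called 0 members, with 12 of 306 at an unadjusted p under 0.05, against 397 of 17689 genes.

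**Figure D2:**
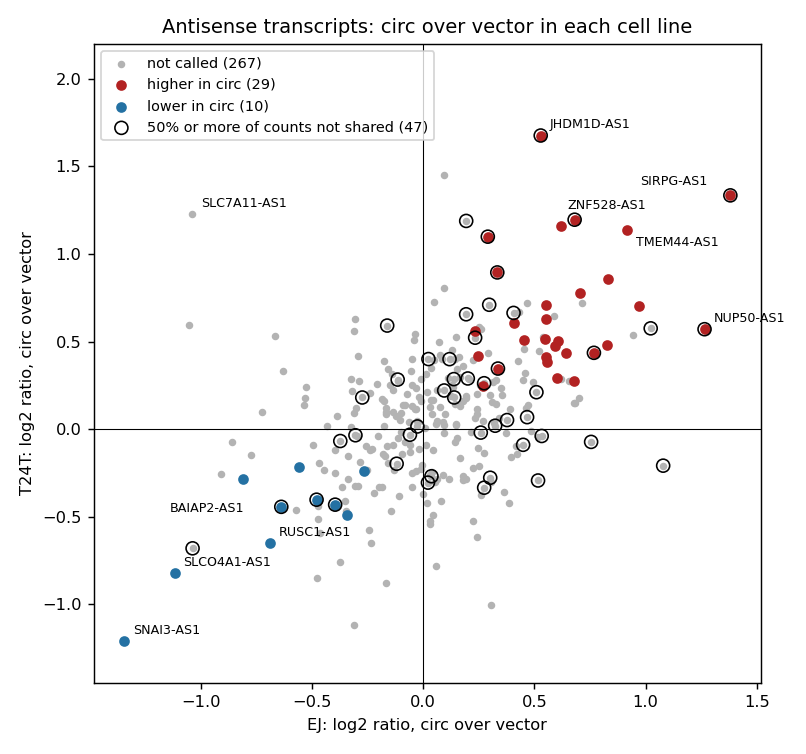
Log2 ratio of circ over vector in EJ (x axis) and T24T (y axis) for the 306 antisense transcripts, 1 point each, with rings around the 47 whose counts are mostly unshared. The 29 red points, called higher, lie in the upper right and the 10 blue points, called lower, in the lower left, while SLC7A11-AS1 is low in EJ and high in T24T.

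Among the 47 members with mostly unshared counts, 8 rose (17.0%, against 7.13% of all genes) and 3 fell (6.38%, against 5.56%), and their median log2 ratio was 0.20. Of the 36 without any exon overlap on the other strand, 7 rose (19.4%) and 1 fell (2.78%), with a median of 0.25. Of the 259 other members, 21 rose (8.11%) and 7 fell (2.70%), with a median of 0.05. The rises among the 47 and among the 36 include SIRPG-AS1 and JHDM1D-AS1, which reached the count threshold through circ. These shares are thus not independent of how members were chosen. Whether these groups differ was not tested.

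SIRPG-AS1 had the highest log2 ratio among the called members. Over the vector libraries 9 members had under 50 counts, and SIRPG-AS1 and JHDM1D-AS1 were the 2 of them that were called. Both reached the threshold of 100 counts through circ, where they are high, so their ratios are not independent of how members were chosen. SIRPG-AS1 lies within the span of SIRPG, which encodes a signal regulatory protein of T cells, and touches none of its exons (chromosome 20, 1633508 to 1648472, hg38, plus strand). It had 7 (vector) and 20 counts (circ) in EJ, and 33 and 91 in T24T. Circ was above vector in each line, but the EJ circ level lay below that of T24T vector, so the groups overlap. The fold was 3.06 in EJ (exact 95% interval of counting error 1.24 to 8.55) and 2.62 in T24T (1.74 to 4.03). Over both lines the log2 ratio was 1.43 ± 0.31 (SE of the edgeR fit over 2 lines, edgeR adjusted p = 0.00199). Each ± here and below is such an SE, which takes most of its spread from other genes and is not the spread between the lines. SIRPG itself had 10, 4, 23 and 37 counts and a log2 ratio of 0.20 ± 0.43 (edgeR adjusted p = 0.825).

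JHDM1D-AS1 runs apart from KDM7A, a histone demethylase gene formerly called JHDM1D (chromosome 7, 140177261 to 140179640, plus strand). EJ gave 12 (vector) and 17 counts (circ), and T24T gave 17 and 62. The rise was mostly in T24T, where the fold was 3.46 (1.998 to 6.32). The fold of 1.51 in EJ had an interval from 0.682 to 3.48, which includes no change. The log2 ratio over both lines was 1.37 ± 0.37 (edgeR adjusted p = 0.0111), whereas KDM7A had -0.09 ± 0.15 (0.773).

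ZNF528-AS1 rose together with its divergent partner ZNF528, a zinc finger gene of the chromosome 19 cluster. EJ gave 120 (vector) and 181 counts (circ), and T24T gave 124 and 302. Both circ libraries were above both vector libraries. Its log2 ratio was 0.96 ± 0.15 (edgeR adjusted p = 5.42e-05) and that of ZNF528 was 0.52 ± 0.14 (0.0125), although their exons share no base.

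SCAMP1-AS1 was the 1 called member whose sense gene was called in the opposite direction. It is divergent from SCAMP1, which encodes a membrane protein of secretory vesicles (chromosome 5, 78342365 to 78360507, minus strand). SCAMP1-AS1 had 111, 178, 83 and 119 counts in EJ vector, EJ circ, T24T vector and T24T circ, and SCAMP1 had 391, 297, 473 and 327. The antisense transcript rose and the mRNA fell in each line. The log2 ratio was 0.63 ± 0.17 for SCAMP1-AS1 (edgeR adjusted p = 0.0126) and -0.46 ± 0.12 for SCAMP1 (0.00772). The antisense share of the pair's counts went from 22.1% (Wilson 95% interval 18.7 to 25.9) to 37.5% (33.2 to 41.9) in EJ and from 14.9% (12.2 to 18.1) to 26.7% (22.8 to 31.0) in T24T. The intervals of circ and vector, which cover counting error only, did not overlap in either line. The pair was singled out for its opposite calls in these same counts, so the shift in share follows from that choice.

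OTUD6B-AS1, divergent from the deubiquitinase gene OTUD6B, had 673 and 795 counts in EJ and 406 and 544 in T24T, vector first. Its log2 ratio was 0.34 ± 0.10 (edgeR adjusted p = 0.0207) and that of OTUD6B was 0.47 ± 0.10 (0.00123). NUP50-AS1, divergent from a nuclear pore gene, had 22 and 52 counts in EJ and 46 and 73 in T24T. It rose by 0.89 ± 0.27 (edgeR adjusted p = 0.0237) on the log2 scale, and NUP50 had 0.10 ± 0.08 (0.49). The ratio of NUP50-AS1 was 1.26 in EJ and 0.57 in T24T. ARHGAP31-AS1, inside the span of ARHGAP31, had 18 and 21 counts in EJ and 45 and 104 in T24T, so its call (0.90 ± 0.28, edgeR adjusted p = 0.0295) rests on T24T. MAGI2-AS3, with at least 62.2% unshared counts, had 31 and 37 in EJ and 93 and 184 in T24T (0.75 ± 0.21, edgeR adjusted p = 0.0152), again mostly in T24T. NUP50-AS1, ARHGAP31-AS1, MAGI2-AS3, JHDM1D-AS1 and the other called members outside the naming rule were singled out after their values were seen.

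The 3 falls with mostly unshared counts were those of BAIAP2-AS1, OIP5-AS1 and TP73-AS1. BAIAP2-AS1 is divergent from BAIAP2, which encodes a membrane-bending adaptor of the actin cytoskeleton (chromosome 17, 81029130 to 81034881, minus strand). It had 422 (vector) and 253 counts (circ) in EJ, and 356 and 275 in T24T, and both circ libraries were below both vector libraries. The log2 ratio was -0.54 ± 0.12 (edgeR adjusted p = 0.00214), against 0.21 ± 0.15 (0.412) for BAIAP2, with 158, 167, 143 and 178 counts. The antisense share of the pair fell by a similar step in each line, from 72.8% (69.0 to 76.2) to 60.2% (55.5 to 64.8) in EJ and from 71.3% (67.2 to 75.1) to 60.7% (56.1 to 65.1) in T24T.

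OIP5-AS1, a conserved long noncoding RNA also known as cyrano, had 904 and 606 counts in EJ and 886 and 705 in T24T, vector first. At least 88.6% of its counts were unshared. Its levels in circ were below those in vector in both lines, and the log2 ratio was -0.44 ± 0.09 (edgeR adjusted p = 0.00169). OIP5, a centromere assembly gene, had 67, 61, 101 and 74 counts in the same order and -0.31 ± 0.21 (edgeR adjusted p = 0.383). TP73-AS1, which GENCODE types as a unitary pseudogene and RefSeq now calls GFOD3P, had 801 and 569 counts in EJ and 928 and 724 in T24T. It fell by 0.42 on the log2 scale (SE 0.09, edgeR adjusted p = 0.00310), and TP73, a gene of the p53 family, had 0.13 ± 0.13 (0.597).

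**Figure D3:**
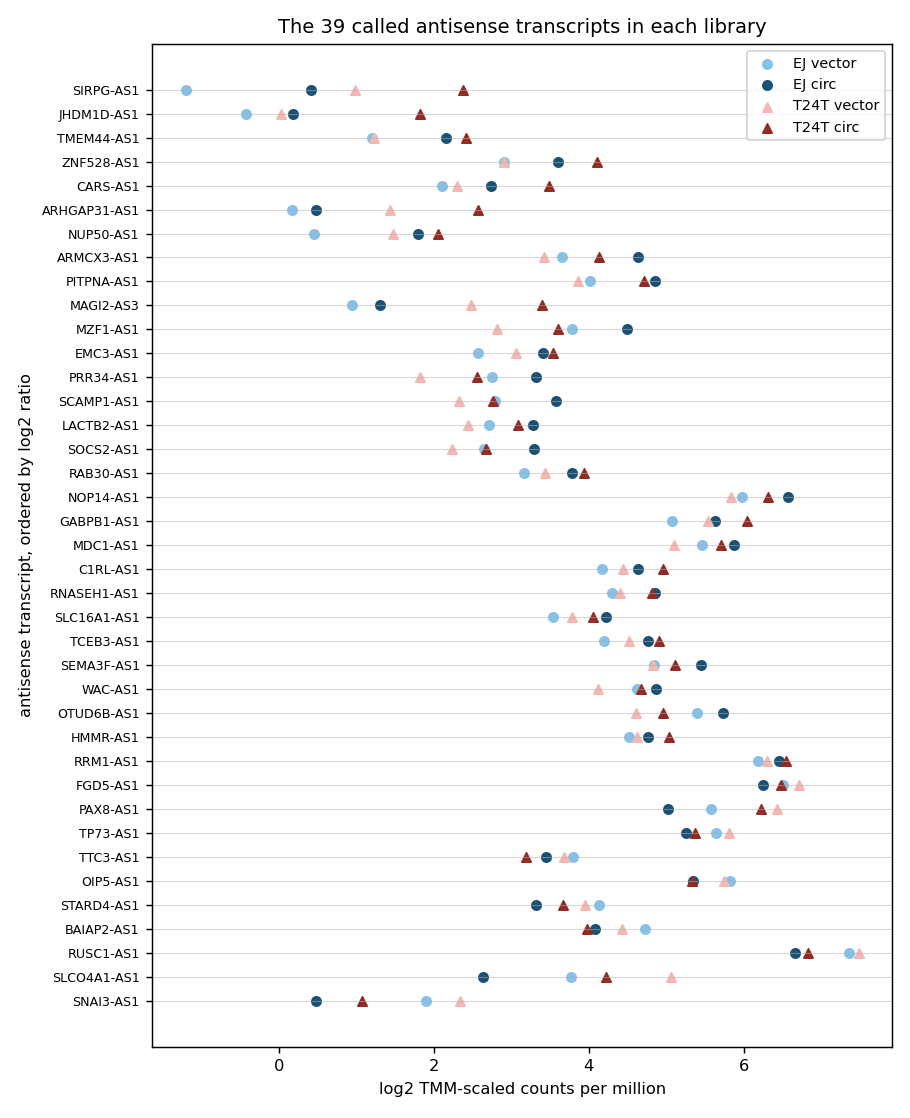
Level of each of the 39 called antisense transcripts as log2 of TMM-scaled CPM (x axis), with circles for EJ, triangles for T24T, pale symbols for vector and dark ones for circ, ordered by log2 ratio from SIRPG-AS1 (1.43) at the top to SNAI3-AS1 (-1.32) at the bottom. Vector and circ groups are apart for 30 transcripts and overlap for the other 9, among them SIRPG-AS1 and SLCO4A1-AS1, where the lines differ more than the treatments. Over all genes tested, both circ libraries lay above both vector libraries for 15.2% and below them for 13.5%. The transcripts shown were called on the same difference, so the 30 add no separate evidence for it.

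For the remaining called members the overlapping gene had counts that could cover part or all of theirs. The largest fall was that of SNAI3-AS1, opposite a gene of the snail family of repressors, with 60 and 21 counts in EJ and 84 and 37 in T24T (-1.32 ± 0.26, edgeR adjusted p = 0.000693). SNAI3 had 6, 1, 25 and 21 counts, so at least 43.2% of SNAI3-AS1 counts were unshared in every library.

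RUSC1-AS1 had the smallest adjusted p, and it shares exons with FDPS as well as with RUSC1. RUSC1-AS1 had 2607 (vector) and 1513 counts (circ) in EJ, and 2964 and 1989 in T24T (-0.67 ± 0.08, edgeR adjusted p = 1.27e-06). FDPS, which encodes farnesyl diphosphate synthase of the cholesterol pathway, had 6759, 4042, 6973 and 5106 (-0.58 ± 0.08, edgeR adjusted p = 7.59e-06). RUSC1, the gene in the name, had 193, 186, 216 and 241 (0.06 ± 0.14, edgeR adjusted p = 0.823). RUSC1-AS1 thus moved as FDPS did and not as RUSC1 did, and its part in FDPS counts was not tested. It is also the 1 fall that DESeq2 called (adjusted p = 1.25e-05).

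SLCO4A1-AS1 and its sense gene, which encodes an organic anion transporter, fell by nearly the same amount. SLCO4A1-AS1 had 218, 93, 551 and 327 counts in EJ vector, EJ circ, T24T vector and T24T circ, and SLCO4A1 had 1602, 718, 3686 and 2217. Their log2 ratios were -0.94 ± 0.13 (edgeR adjusted p = 6.41e-06) and -0.93 ± 0.09 (1e-08). STARD4-AS1, opposite a sterol transfer protein gene, had 281, 149, 257 and 222 counts (-0.54 ± 0.14, edgeR adjusted p = 0.00979), and STARD4 had 967, 485, 837 and 735 (-0.57 ± 0.11, 0.000591). The antisense share of the STARD4 pair stayed between 22.5% and 23.5%, and that of the SLCO4A1 pair between 11.5% and 13.0%, within the counting intervals of each other. PAX8-AS1 (-0.37 ± 0.10, edgeR adjusted p = 0.00831) fell with the transcription factor gene PAX8 (-0.59 ± 0.08, 9.17e-06), and TTC3-AS1 (-0.42 ± 0.14, 0.0486) with the ubiquitin ligase gene TTC3 (-0.33 ± 0.09, 0.0102). PAX8-AS1 had 765, 486, 1432 and 1299 counts, and its ratio was -0.56 in EJ and -0.22 in T24T. That of STARD4-AS1 was -0.81 in EJ and -0.28 in T24T, so both falls were mostly in EJ. FGD5-AS1 (-0.25 ± 0.08, edgeR adjusted p = 0.0471) fell while NR2C2 had 0.04 ± 0.09 (0.831).

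Higher members with a sense gene that rose as well included ARMCX3-AS1, PITPNA-AS1, NOP14-AS1, CARS-AS1, MDC1-AS1, RNASEH1-AS1, TCEB3-AS1, LACTB2-AS1 and PRR34-AS1. ARMCX3-AS1, with 93.9% of its exon bases inside exons of the other strand, had 202 and 372 counts in EJ and 178 and 307 in T24T (0.85 ± 0.13, edgeR adjusted p = 3.19e-05). ARMCX3, which encodes a mitochondrial outer membrane protein, had 470, 760, 418 and 642 counts (0.67 ± 0.10, edgeR adjusted p = 3.82e-05). NOP14-AS1, opposite a small-subunit ribosome assembly gene, had 1009, 1423, 943 and 1382 counts and rose by 0.53 ± 0.09 (edgeR adjusted p = 7.65e-05), as NOP14 did (0.54 ± 0.08, 3.81e-05). DESeq2 also called NOP14-AS1 (adjusted p = 0.0118). CARS-AS1 rose by 0.94 ± 0.18 (edgeR adjusted p = 0.00071), and CARS, the cysteinyl-tRNA synthetase gene, by 0.78 ± 0.12 (5.23e-05). The ratio of CARS-AS1 was 0.62 in EJ and 1.16 in T24T. Both genes moved more in T24T, where CARS-AS1 went from 82 to 196 counts and CARS from 1228 to 3133. PITPNA-AS1 rose by 0.85 ± 0.12 (edgeR adjusted p = 6.12e-06), and the lipid transfer protein gene PITPNA by 0.26 ± 0.08 (0.0323). That difference between the pair was not tested. MDC1-AS1 (0.51 ± 0.10, edgeR adjusted p = 0.000472) lies opposite the DNA damage mediator gene MDC1 (0.31 ± 0.08, 0.0122). SEMA3F-AS1 (0.45 ± 0.11, edgeR adjusted p = 0.00442) shares exons with RBM5, a splicing factor gene that rose by 0.41 ± 0.08 (0.000928), while SEMA3F, a semaphorin gene, had -0.45 ± 0.21 (0.157).

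Other higher members rose beside a sense gene that did not pass the test. GABPB1-AS1, opposite a gene for a subunit of the GABP transcription factor, had 540 and 738 counts in EJ and 767 and 1153 in T24T (0.53 ± 0.09, edgeR adjusted p = 0.000216, DESeq2 adjusted p = 0.0310). GABPB1 had 444, 392, 453 and 428 (-0.12 ± 0.11, edgeR adjusted p = 0.535), and at least 17.6% of GABPB1-AS1 counts were unshared. MZF1-AS1, opposite a zinc finger transcription factor gene, had 221 and 338 counts in EJ and 117 and 213 in T24T (0.74 ± 0.14, edgeR adjusted p = 0.000336), against -0.07 ± 0.14 (0.809) for MZF1. TMEM44-AS1 had 37 and 67 counts in EJ and 39 and 93 in T24T (1.07 ± 0.24, edgeR adjusted p = 0.00223), and the transmembrane protein gene TMEM44 had -0.05 ± 0.15 (0.875). C1RL-AS1, opposite a complement-like protease gene, had 289 and 371 counts in EJ and 361 and 541 in T24T (0.48 ± 0.11, edgeR adjusted p = 0.00361), with 0.09 ± 0.13 (0.742) for C1RL. SOCS2-AS1, WAC-AS1, SLC16A1-AS1, EMC3-AS1, HMMR-AS1, RRM1-AS1 and RAB30-AS1 also rose, by 0.26 to 0.65 on the log2 scale, with sense genes between -0.17 and 0.37 that were not called. RAB30-AS1 shares exons with a clone-named gene on the other strand that rose by 0.68 (edgeR adjusted p = 0.00182).

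Sense genes were set beside their antisense transcripts in 292 pairs with both tested. Both were called in 16 pairs, 15 in the same direction and SCAMP1 alone in opposite ones. Among these, only the pairs of OTUD6B, ZNF528 and SCAMP1 share no exon. In the others the member overlaps exons of the sense gene and its floor on unshared counts was 0. Of the 29 higher members, 11 had a sense gene that rose, 1 had one that fell and 17 had one that was not called. Of the 10 lower members, 4 had a sense gene that fell, 5 had one that was not called and FGD5 could not be tested. Another 31 members were not called beside a called sense gene, and 28 of those had the sign of the sense gene. Where exons overlap, reads counted for both genes can give a pair the same sign. These counts of direction are thus descriptions without a test. Among the 286 distinct sense genes tested, 25 rose (8.74%, against 7.13% of all genes) and 21 fell (7.34%, against 5.56%).

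**Figure D4:**
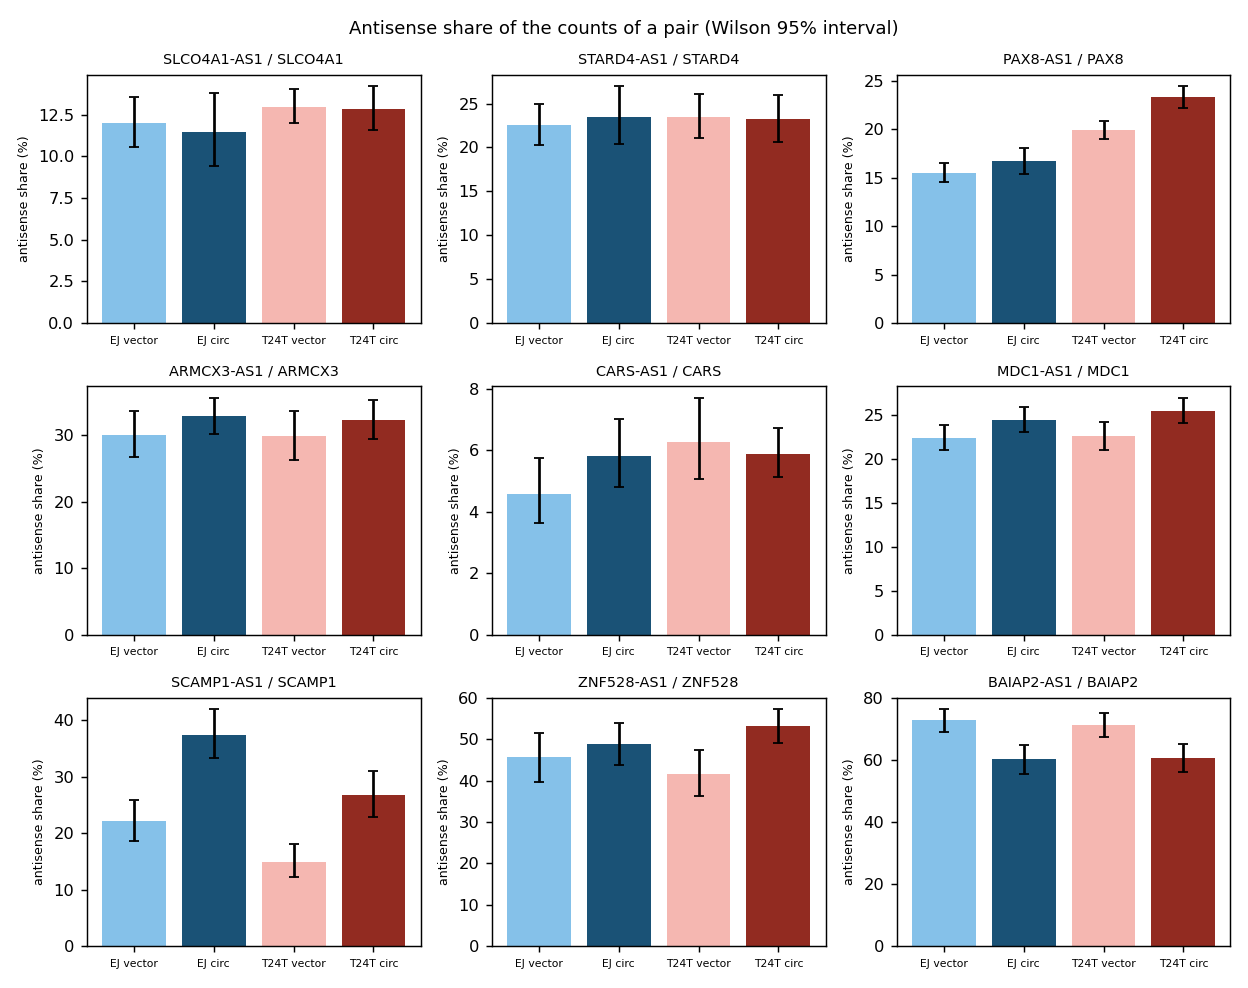
Antisense share (%) of the summed counts of 9 antisense and sense pairs in each library, with Wilson 95% intervals that cover counting error only. Shares in the exon-overlapping SLCO4A1 and STARD4 pairs stay level, the share rises with circ in the SCAMP1 pair and falls with circ in the BAIAP2 pair, both without shared exons.

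Member and sense log2 ratios ran closer where exons overlap. For circ over vector, the Spearman correlation across pairs was 0.524 for 245 pairs with overlapping exons, 0.197 for 29 divergent pairs and -0.153 for 18 pairs with overlapping spans alone. For T24T over EJ the same values were 0.773, 0.44 and 0.33. Among exon-overlapping pairs with 50% or more of the member's exon bases covered, they were 0.627 and 0.901 (n = 29). They were 0.483 and 0.801 with 10 to 50% covered (n = 146), and 0.509 and 0.676 with under 10% (n = 70). For circ over vector at 300 or more counts, the contrast with divergent pairs was smaller. The values were 0.594 for overlapping exons (n = 153), 0.477 for divergent pairs (n = 14) and -0.603 for spans alone (n = 9). Pairs share libraries and, where exons overlap, possibly reads, so these are descriptions without a test.

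**Figure D5:**
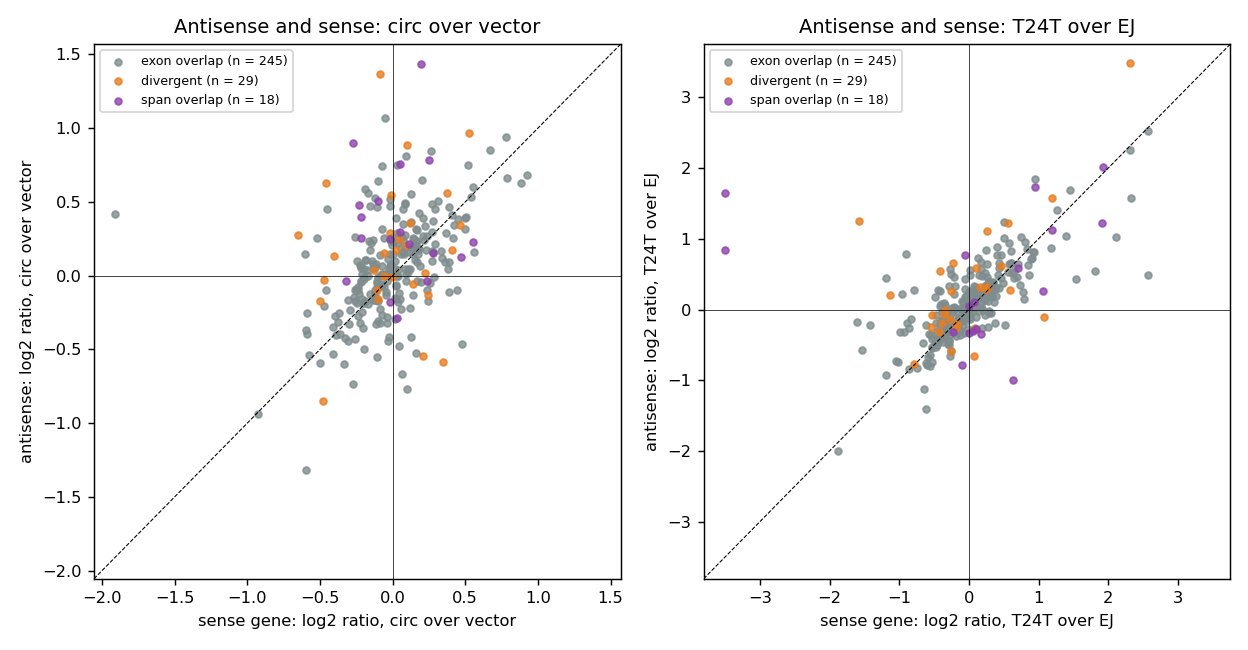
Log2 ratio of the antisense transcript (y axis) against that of its sense gene (x axis), for circ over vector on the left and T24T over EJ on the right, with 1 point per pair coloured by geometry and a dashed line of equality. Grey exon-overlapping pairs (n = 245) follow the line more closely than divergent (n = 29) or span-overlapping pairs (n = 18), and on the right both DLGAP1 pairs sit at the far left with a sense ratio of -3.50.

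The same fit compared T24T with EJ, with transfection as the block. T24T was higher for 74 members (24.2%, against 21.9% of all genes tested) and lower for 39 (12.7%, against 19.5%), which makes 113 in all (36.9%, against 41.4%). DESeq2 called 27 higher (8.82%, against 1773 of 17689 genes), a share below the background and so the reverse of edgeR's, and 8 lower (2.61%, against 8.08% of all genes), 35 in all (11.4%, against 18.1%). Both T24T libraries lay above both EJ libraries for 105 members (34.3%, against 31.4%) and below them for 71 (23.2%, against 29.1%). The median log2 ratio was 0.09 for the members and 0.01 for all genes. Summed over a line, 2 members had under 25 counts in EJ, GAS6-AS2 and FEZF1-AS1, and 0 in T24T. These entered through T24T alone, so their difference is a description. More widely, 25 members had under 50 counts in EJ, of which 13 were called higher in T24T, SERTAD4-AS1 among them, and 5 had under 50 in T24T, of which 1 was called lower. FEZF1-AS1, next to a forebrain zinc finger gene, had 3 and 6 counts in EJ and 97 in each T24T library, and GAS6-AS2 had 2, 6, 53 and 48.

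GAS6-AS1 had the smallest adjusted p between the lines. It had 58 and 38 counts in EJ and 252 and 249 in T24T (2.25 ± 0.18, edgeR adjusted p = 3.17e-12), and GAS6, the ligand gene of the TAM receptor kinases, differed by 2.31 (2.75e-18). DLGAP1-AS2 and DLGAP1-AS1 went against their sense gene. DLGAP1-AS2 had 157, 113, 461 and 463 counts in EJ vector, EJ circ, T24T vector and T24T circ (1.65 ± 0.13, edgeR adjusted p = 4.12e-12), while DLGAP1, a postsynaptic scaffold gene, had 30, 24, 1 and 4. DLGAP1-AS1 was higher in T24T as well, by 0.84 (edgeR adjusted p = 8.96e-05), and neither antisense transcript shares an exon with DLGAP1. Pairs called in opposite directions between the lines, 6 in all against 80 in the same direction, also included those of DICER1, TRAF3IP2 and ZMIZ1. Here too, reads counted for both genes of an exon-overlapping pair can give it the same sign.

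IL10RB-AS1, which overlaps IFNAR2, an interferon receptor gene, was higher in T24T by 1.58 ± 0.13 (edgeR adjusted p = 4.18e-12), as IFNAR2 was (1.57). SERTAD4-AS1 had 22 and 25 counts in EJ and 118 and 186 in T24T (2.53 ± 0.23, edgeR adjusted p = 5.94e-11). As a member through T24T, it is given as a description. It exceeded SERTAD4, which had 11, 8, 60 and 66 counts. FOXD1-AS1, PAX8-AS1 and SLCO4A1-AS1 were higher in T24T by 1.69, 1.02 and 1.41, each in the direction of its sense gene. Lower in T24T were MYCBP2-AS1, with 430 and 435 counts in EJ and 192 and 248 in T24T (-1.12 ± 0.12, edgeR adjusted p = 3.23e-09), and BEAN1-AS1, with 147 and 99 against 35 and 32 (-1.99 ± 0.22, 5.06e-09). HMGN3-AS1, MZF1-AS1, DSG2-AS1, STEAP3-AS1 and TMPO-AS1 were lower by 0.45 to 0.93 beside sense genes that were lower too. For DSG2-AS1, with 763, 569, 400 and 514 counts, the ratio was -0.98 between the vector libraries and -0.37 between the circ libraries. OTUD6B-AS1, which shares no exon with OTUD6B, was lower by 0.78, and OTUD6B by 0.78. Among the 47 members with mostly unshared counts, 16 were higher in T24T (34.0%, against 21.9% of all genes) and 4 lower (8.51%, against 19.5%). The 16 include FEZF1-AS1, GAS6-AS2, SIRPG-AS1, INHBA-AS1, JHDM1D-AS1, ZMIZ1-AS1, ARHGAP31-AS1 and GATA2-AS1, which had few counts in EJ. Those members reached the count threshold through T24T, where they are high. The share of higher members is thus not independent of how members were chosen.

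The response to circ differed between the lines for some members that the test over both lines did not call. The design has no replicate for this difference, so it is given as values. SLC7A11-AS1, opposite the cystine transporter gene SLC7A11, had 114 (vector) and 51 counts (circ) in EJ, and 28 and 72 in T24T. That is a fold of 0.479 (0.337 to 0.671) in EJ and 2.44 (1.56 to 3.92) in T24T. SLC7A11 went from 479 to 361 and from 142 to 398, and its counts could cover all of those of SLC7A11-AS1. ZMYM4-AS1 (-1.05 and 0.59), SYNE1-AS1 (0.09 and 1.45), CHKB-AS1 (0.19 and 1.19) and RARA-AS1 (-0.63 and 0.33) also had higher log2 ratios in T24T than in EJ. ARHGAP5-AS1 (0.31 and -1.003), PAXIP1-AS2 (0.24 and -0.62), TRAF3IP2-AS1 (0.06 and -0.78), WWTR1-AS1 (0.39 and -0.43) and CAPN10-AS1 (0.52 and -0.29) had lower ones. Counts of these members lay between 15 and 132 per library.

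At 8 loci, 2 members each carry the same sense name, 16 members in all. At GAS6 the log2 ratio of T24T over EJ was 2.25 for GAS6-AS1 and 3.48 for GAS6-AS2, which is a member through T24T alone. The homeobox transcripts HOXB-AS1 and HOXB-AS3 were also both higher in T24T, by 0.73 and 0.81. HOXA-AS3 was higher by 2.14 (edgeR adjusted p = 2.18e-09), while HOXA-AS2 had -0.42 (0.189). None of the 16 was called between circ and vector, and the 2 members had ratios of the same sign at COL4A2, GAS6, NCBP2 and PAXIP1.

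Genes that make, end or degrade noncoding transcripts were listed as the machinery that acts on antisense RNA. Of 57 such genes, 7 rose with circ (12.3%, against 7.13% of all genes) and 0 fell by edgeR (against 5.56%), with a median log2 ratio of 0.09. The rises were those of the nuclear exosome genes EXOSC2 (0.35) and DIS3 (0.27), the polyadenylated RNA adaptor gene ZFC3H1 (0.37), the Integrator gene INTS3 (0.53), the termination genes PCF11 (0.58) and CSTF2 (0.49), and SRRT (0.25), which encodes the cap-binding partner ARS2. DIS3 and SRRT were named after their values were seen. PCF11 had 528 (vector) and 807 counts (circ) in EJ, and 410 and 589 in T24T (0.58 ± 0.10, edgeR adjusted p = 0.000227). INTS3, PCF11 and CSTF2 were also called by DESeq2. These rises stood beside those of the antisense transcripts in the same libraries, and their part in them was not tested.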

How the data were processed

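RNA-seq of 4 libraries was used. Per the submitters' processing notes, reads were handled with Trimmomatic and HISAT2 on hg38. The counter, its annotation and its use of strand are not given in the sources used here. The authors deposited raw counts per gene for 56303 genes and RPKM values for 29817 of them, and 100% of the RPKM values checked equalled count, length and library total to a relative tolerance of 1e-06.

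The members and lists were chosen with earlier results of these data known. Counts were fitted with edgeR 4.0.16 (R 4.3.3) by the quasi-likelihood test with TMM scaling, the cell line or the transfection as a block, and 1 residual degree of freedom. The filter kept 17689 genes whose highest library reached 10 counts and whose sum reached 20, with Benjamini-Hochberg adjustment over all of them. The vector and circ libraries of a line were paired by that line. Within-line ratios are log2 ratios of TMM-scaled CPM with a prior count of 2. Fold and share intervals (exact binomial and Wilson, 95%) cover counting error only. On simulated counts for circ over vector, 91.5% of 200 genes changed 2-fold were recovered and 0.0229% of the unchanged genes were called, over 17689 genes. The simulated counts followed the fitted model, with the same change in both lines, so these rates do not show how that model holds for the data. Alternatives were DESeq2 1.42.0, limma 3.58.1 on counts (voom) and on log2(RPKM + 1) or log2(RPKM + 0.1), other scalings and filters, and no block.

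The rule for named members took up to 12 per direction by adjusted p between circ and vector, the 10 with the highest mean RPKM, up to 8 per direction by adjusted p between the lines, pairs with both genes called, up to 5 per direction by difference in response between the lines, and 3 on each side of the count threshold. It took up to 5 turnover genes per direction. Other members in the text were singled out after their values were seen, and some results under the rule are not reported here. Sense genes were matched by symbol or RefSeq synonym, and types came from GENCODE release 29. Promoters came from RefSeq GRCh38.p14.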

Additional observations from a re-analysis of the deposited data

Results flagged for a closer look

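SLC7A11-AS1 had log2 ratios of circ over vector of opposite sign in the lines, -1.04 in EJ and 1.23 in T24T. T24T minus EJ was 2.27. Each line gives 1 ratio, so this difference was not tested, and it was singled out because the direction was opposite in the lines.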

How the results depend on the processing

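Counts of members between circ and vector (29 higher, 10 lower) depended on the model. DESeq2 gave 2 and 1. Limma on log2(RPKM + 1) and on log2(RPKM + 0.1) gave 0 and 0 (75 and 61 members at an unadjusted p under 0.05), and edgeR with no replicate block, which drops the pairing by line, gave 0 and 0 (12 unadjusted). RLE size factors gave 16 lower. The 36 members without opposite-strand exon overlap gave 7 (19.4%) and 1 (2.78%). The 47 with mostly unshared counts, an alternative chosen after seeing the data, gave 8 (17.0%) and 3 (6.38%). These are smaller sets, and the shares over all 306 members were 9.48% and 3.27%. Between T24T and EJ (74 higher, 39 lower) DESeq2 gave 27 and 8, limma gave 47 higher on log2(RPKM + 1) and 31 and 12 on log2(RPKM + 0.1), and no replicate block gave 33 and 10. The 36 members without overlap gave 13 (36.1%) and 2 (5.56%), and the 47 with mostly unshared counts gave 16 (34.0%) and 4 (8.51%). Over all members the shares were 24.2% and 12.7%. Sense genes (25 higher, 21 lower) gave 7 and 6 with DESeq2, and 0 and 0 with both limma fits and with no block. The 7 higher turnover genes became 3 with DESeq2 and 0 with both limma fits and with no block. Pairs with both called (15 same, 1 opposite) became 1 and 0 with DESeq2 and 0 and 0 with both limma fits and with no block. The median ratio of members in T24T was 0.0498 on log2(RPKM + 1), against 0.105. Of 43 results for single members (27 for circ, 16 for the lines), 43 kept their direction and side of the threshold with voom, RLE factors or library size alone, while 29 lost the call with no block, 27 with limma on log2(RPKM + 1), 29 on log2(RPKM + 0.1) and 9 with DESeq2, where 19 kept it. With DESeq2 all 9 lost calls were circ results. Those kept were the 16 line results and the circ results of GABPB1-AS1, NOP14-AS1 and RUSC1-AS1. DESeq2 gave the remaining circ results no adjusted p. In 1 line alone, 6 (EJ) and 7 (T24T) of 27 circ ratios differed from the fitted ratio by more than its SE, and with 1 transfection alone 7 (vector) and 6 (circ) of 16 line ratios did. Those of CARS-AS1, PAX8-AS1, STARD4-AS1 and DSG2-AS1 differed by over 1.5 times. With 1 library per group the spread comes from the line-to-line difference and from other genes, and members near 100 counts have wide counting intervals.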
